A study of Rattus norvegicus with 24 samples.

Results

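The genes described are a set of 10 that injured nerve cells and other stressed cells are known to switch on: the AP-1 factors Jun, Junb, Fosl1 and Fosl2, their relative Atf3, the immediate early gene Ier2, and the regeneration-associated genes Sox11, Gap43, Sprr1a and Klf6. Members were taken by gene name from a list drawn up with earlier results of these data known, so their counts and medians below describe the list and are no independent support for its direction. Of the 10 names, 9 have a row among the 29539 genes of the deposited tables and 9 were tested among 14421 genes that passed a filter on low counts. Junb was not analysed here. Atf3 and Sprr1a passed that filter through the vehicle and SKF libraries: Atf3 reached its minimum in 3 of 8 normal control libraries and Sprr1a in 0 of 8, so for both, passing the filter already depended on their level in the other groups.

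RNA was sequenced from 24 samples of rat brain, 8 in each of the groups named normal control, vehicle and SKF. Per the series text, the rats of the model had stab wounds of the forebrain. SKF-81297, an agonist of D1-like dopamine receptors, went into the peritoneal cavity once a day on 3 days, beginning 1 h after injury. The labels describe the vehicle group by that word alone, which is read here as wounded and given the carrier. They do not call normal control sham-operated, and they give no strain, sex, age, brain region or time of collection. Vehicle against normal control therefore holds the wound, the surgery, the carrier and any difference in the tissue taken, which cannot be told apart. No label states that samples within a group came from separate animals, so p-values measure the spread between these samples, which may be technical.

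AP-1 is a family of dimers of Jun proteins with Fos proteins, or with relatives such as Atf3. They bind DNA letters within the pattern TGANTCA, where N stands for any base in the search below. The Jun N-terminal kinases (JNK) raise the activity of Jun by phosphorylating it. After a peripheral axon is cut, the neuron raises Atf3, Jun, Sox11, Klf6, Sprr1a and Gap43, and this set is known as the regeneration-associated programme. In the injured brain many of these genes are also expressed by glia, by vessel cells and by cells that arrive from the blood. In bulk tissue, more cells of a type and more RNA per cell cannot be told apart.

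Total counts per library ran from 8911339 to 12383368. Markers of neurons and oligodendrocytes were present in every group, as the label brain implies: the summed TPM (transcript abundance corrected for gene length and library size) of 8 neuronal markers ran from 4828 to 6666 in normal control, 3583 to 6249 in vehicle and 4764 to 6162 in SKF. Markers listed for neutrophils and for blood-derived macrophages differed between normal control and both other groups. These are the names of the marker lists, and whether the cells came from the blood was not tested. The sum of 5 neutrophil markers was 3.19 to 8.71 TPM in normal control, 134 to 341 TPM in vehicle and 68.6 to 129 TPM in SKF, with no overlap between any of the groups. In SKF against vehicle 0 of these 5 genes passed the edgeR test described below. The sum of 6 markers of blood-derived macrophages was 3.61 to 10.6 TPM in normal control, 96.9 to 164 TPM in vehicle and 86.5 to 111 TPM in SKF. No marker of any of these lists was at 0 in all libraries of a group. The part of these cells in the results below was not tested. By the edgeR test described below, 26.9% of all genes tested were higher in vehicle than in normal control and 27.1% lower. Of the markers, 5 of 5 for neutrophils and 6 of 6 for macrophages were higher. For oligodendrocytes 6 of 6 were lower, and for astrocytes 1 was higher and 5 lower of 6. The summed TPM of the 6 astrocyte markers was higher all the same, at 1520 to 1862 in normal control, 2862 to 4325 in vehicle and 3380 to 4022 in SKF. That higher sum rests on the 1 marker that rose, against the 5 that fell. Of microglia markers 2 were higher and 2 lower of 6, of endothelial markers 2 higher and 0 lower of 4, and of fibroblast and pericyte markers 0 higher and 1 lower of 6. Normal control 4 stood apart in skeletal muscle markers, at a summed 2252 TPM.

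Vehicle was compared with normal control to ask which of these genes differed in wounded brain. Atf3 and Sprr1a were the genes with the greatest differences, followed by Ier2, Klf6, Jun and Sox11, all at least 2-fold higher in vehicle. Fosl1 and Fosl2 were higher by less, and Gap43, the growth cone protein, was lower. All 9 genes tested passed edgeR's quasi-likelihood test at a Benjamini-Hochberg adjusted p under 0.05, 8 higher and 1 lower, where 54% of all genes tested passed, 26.9% as higher and 27.1% as lower. A rise of at least 2-fold was reached by 6 of the 9 and by 7.69% of all genes tested. In 6 of the 9 every vehicle library lay above every normal control library, which held for 11.6% of all genes tested, and in 0 of the 9 every vehicle library lay below, which held for 7.5%. The median log2 fold change of the 9 was 1.19, beside -0.01 for all genes tested.

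**Figure D1:**
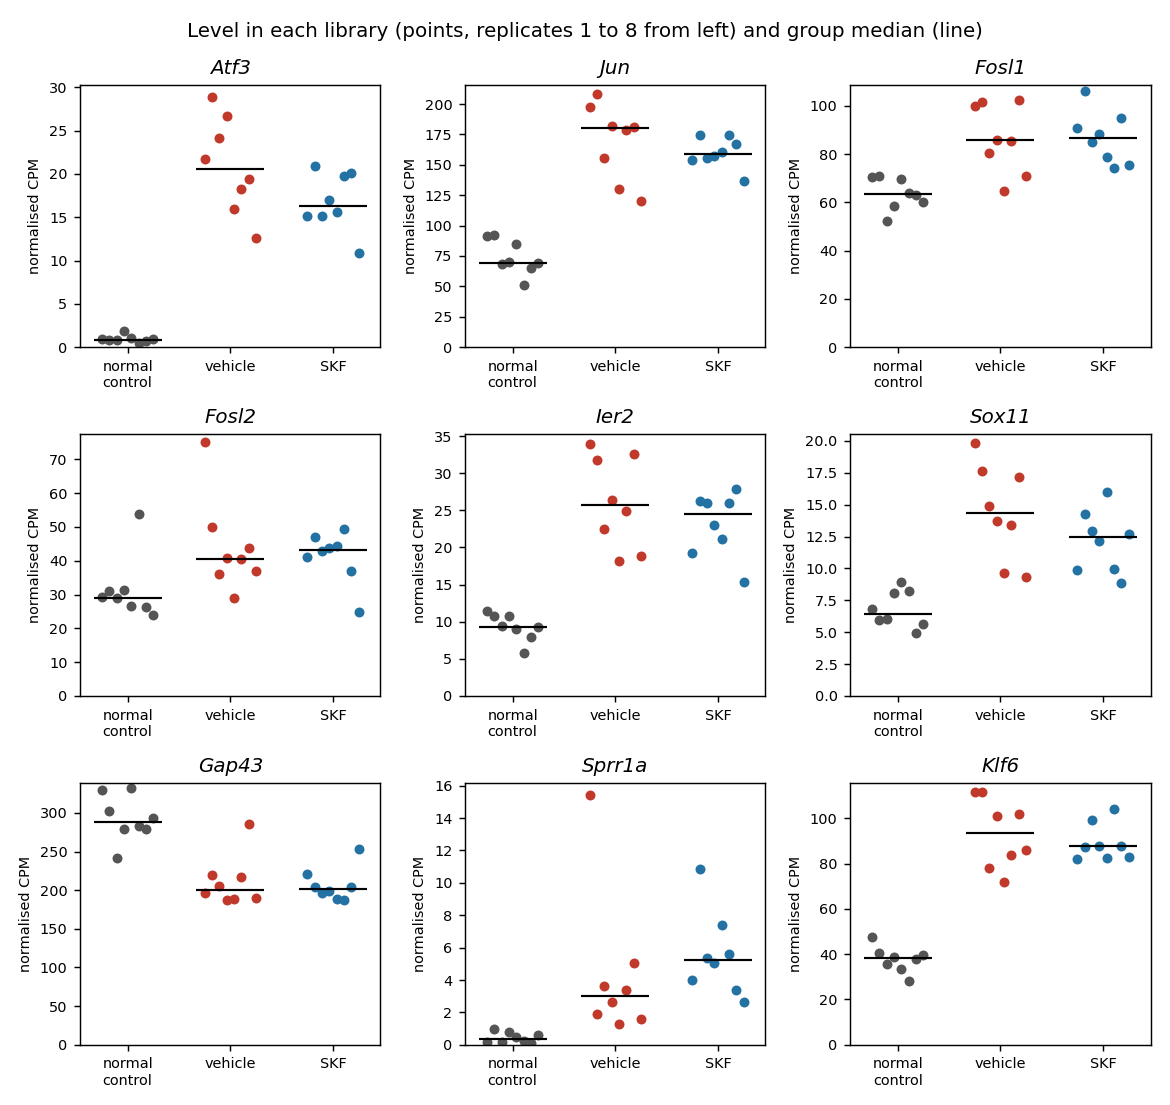
Level of each gene (normalised CPM, linear axis from 0) in each of the 24 libraries, with 1 point per library, replicates 1 to 8 from left to right within a group, and a line at the group median. Vehicle and SKF points lie above all normal control points for Atf3, Jun, Ier2, Sprr1a and Klf6, overlap them for Fosl2, and lie mostly below them for Gap43.

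Levels within a gene are given as normalised CPM, the CPM (counts scaled to a common library total) after TMM scaling. Atf3, a stress-induced bZIP factor that pairs with Jun, was at 0.434, 0.875 and 1.87 normalised CPM (lowest, median and highest) in normal control and at 12.6, 20.6 and 28.9 in vehicle. All 8 vehicle libraries were above all 8 normal control libraries, and the lowest vehicle level was several times the highest normal control level, which was in normal control 4. The log2 fold change was 4.43 ± 0.21 (SE, n = 8 per group), a 21.5-fold rise with a 95% interval from 15.8-fold to 29.2-fold (edgeR adjusted p = 1.69e-15). Jun, the main partner in AP-1 dimers, was at 50.8, 69.5 and 92.1 normalised CPM in normal control and at 120, 180 and 208 in vehicle. These ranges did not overlap either, with vehicle 8 the lowest and vehicle 2 the highest of the vehicle libraries for both Atf3 and Jun. Jun rose by 1.19 ± 0.11 (log2 fold change with its SE, 8 libraries a group), or 2.29-fold (edgeR adjusted p = 1.57e-09).

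The Fos-related members differed less. Fosl1, also known as Fra-1, was at 52.4, 63.5 and 70.8 normalised CPM in normal control and at 64.6, 85.7 and 103 in vehicle, where 7 of 8 libraries were above every normal control library. It rose by 0.44 ± 0.09 (log2 fold change with its SE, 8 libraries a group), or 1.36-fold (edgeR adjusted p = 0.000192). In the RefSeq gene table (assembly GRCr8) the neighbouring gene is Ccdc85b, named here outside the rule for naming genes, which was lower in vehicle, at -0.41 ± 0.14 on the log2 scale (edgeR adjusted p = 0.0164). How the authors' counting used strand is not given in the sources used here, so the split of reads between these neighbours is uncertain.

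Fosl2, also known as Fra-2, was at 23.8, 29.1 and 53.9 normalised CPM in normal control and at 28.8, 40.6 and 75.0 in vehicle. The groups overlapped over most of their range. Normal control 6 was far above the other normal controls, and 1 vehicle library, vehicle 1, was above them all. The log2 fold change of 0.48 ± 0.18 (n = 8 per group) passed (edgeR adjusted p = 0.0227), but without vehicle 1 it was 0.33 and did not (edgeR adjusted p = 0.0701). Without normal control 6 it was 0.64.

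Ier2, an immediate early gene whose nuclear protein is induced by growth factors, was at 5.75, 9.34 and 11.5 normalised CPM in normal control and at 18.2, 25.7 and 33.9 in vehicle. Every vehicle library was above every normal control library. It rose by 1.48 ± 0.15 (log2 fold change with its SE, 8 libraries a group), or 2.80-fold (edgeR adjusted p = 3.45e-09).

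Among the regeneration-associated genes, Sprr1a, a small proline-rich protein of the cornified envelope that sensory neurons also make after axon injury, was at 0.0908, 0.340 and 0.956 normalised CPM in normal control and at 1.26, 3.00 and 15.4 in vehicle. All vehicle libraries were above all normal controls, and vehicle 1 stood far above the other vehicle libraries, of which the next was at 5.05. The log2 fold change was 3.26 ± 0.54 (n = 8 per group), or 9.61-fold (edgeR adjusted p = 1.38e-05), and it was 2.62 without vehicle 1. Keratinocyte markers, of which 2 were in the table, summed to 3.13 to 4.72 TPM in normal control and 3.01 to 12.0 TPM in vehicle, with the highest sum in vehicle 8. The part of keratinocytes in the level of Sprr1a was not tested.

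Sox11, a transcription factor of developing neurons that returns in axotomised ones, was at 4.90, 6.45 and 8.90 normalised CPM in normal control and at 9.30, 14.3 and 19.8 in vehicle. The lowest vehicle library was just above the highest normal control, with no overlap. Sox11 rose by 1.08 ± 0.16 (log2 fold change with its SE, 8 libraries a group), or 2.11-fold (edgeR adjusted p = 1.99e-06). Klf6, a zinc-finger factor that promotes axon growth, was at 28.1, 38.2 and 47.4 normalised CPM in normal control and at 71.8, 93.5 and 112 in vehicle, again with no overlap. It rose by 1.31 ± 0.10 (log2 fold change with its SE, 8 libraries a group), or 2.47-fold (edgeR adjusted p = 7.19e-12).

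Gap43, a membrane protein of growth cones and presynaptic endings, was the member that fell. It was at 242, 288 and 332 normalised CPM in normal control and at 187, 201 and 285 in vehicle. Of the 8 vehicle libraries 7 were below every normal control, and the other, vehicle 7, lay within their range. Gap43 fell by 0.47 ± 0.08 (log2 fold change with its SE, 8 libraries a group), a 1.39-fold lower level (edgeR adjusted p = 1.86e-05). Of 8 neuronal markers 3 were lower in vehicle and 0 higher by the same test, beside 27.1% and 26.9% of all genes tested. The summed TPM of these markers overlapped between the groups.

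RefSeq promoter sequences (build GRCr8, the 250 bases before the annotated start) were found for 6 of the 9 members: Fosl1, Fosl2, Ier2, Sox11, Sprr1a and Klf6. Each was searched on both strands for the AP-1 letters TGANTCA, the CRE letters TGACGTCA that Atf and Creb proteins and Jun dimers with them bind, and TATAAA. The first 2 read the same on both strands, and no match overlapped another. The sequences with an AP-1 or CRE match are shown 5′ to 3′ on the strand of the gene, with the matches to those 2 motifs in capitals. Sprr1a lies on the minus strand at chr2:180752626-180752875 and Ier2 on the plus strand at chr19:40399123-40399372.
Sprr1a: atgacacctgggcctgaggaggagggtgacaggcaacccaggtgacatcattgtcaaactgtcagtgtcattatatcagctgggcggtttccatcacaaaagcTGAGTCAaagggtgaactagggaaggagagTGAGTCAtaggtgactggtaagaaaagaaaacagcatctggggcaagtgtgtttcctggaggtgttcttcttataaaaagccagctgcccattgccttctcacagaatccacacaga
Ier2: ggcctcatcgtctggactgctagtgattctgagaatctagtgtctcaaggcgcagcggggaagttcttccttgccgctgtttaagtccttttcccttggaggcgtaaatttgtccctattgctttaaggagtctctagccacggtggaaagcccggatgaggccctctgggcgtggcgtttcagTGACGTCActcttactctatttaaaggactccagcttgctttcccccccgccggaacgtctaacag
The Sprr1a promoter held 2 AP-1 matches, beginning 147 and 117 bases before the start, and a TATAAA 46 bases before it. Of 33469 promoters of this length, 6.34% held TGANTCA with any base at N, 0.311% held it at least 2 times, and 12.9% held TATAAA. Both matches in Sprr1a read TGAGTCA, and the share of promoters with that form alone was not computed. The Ier2 promoter held 1 CRE match, 66 bases before the start, which 1.59% of the promoters had. The windows of Fosl1, Fosl2, Sox11 and Klf6 held none of these letters. A match describes the letters of the window and is not a measured binding site.

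Between genes, levels were compared as median TPM. In normal control the order was Gap43 (476.5), Fosl1 (43.2), Jun (38.1), Klf6 (16.0), Fosl2 (13.8), Sox11 (7.84), Ier2 (4.61), Atf3 (1.13) and Sprr1a (0.981). The place of Fosl1 in each group is uncertain, as is the split of reads with its neighbour Ccdc85b described above. Of neighbours in this order, Fosl1 and Jun overlapped in their ranges, as did Klf6 and Fosl2, Fosl2 and Sox11, and Atf3 and Sprr1a, while the other neighbours were apart. In vehicle Gap43 (368.4) was still first, and Jun (106.9) came before Fosl1 (64.6), Klf6 (42.5), Atf3 (29.6), Fosl2 (21.0), Sox11 (19.1), Ier2 (13.7) and Sprr1a (9.31). Atf3 stood in the fifth place, after the eighth in normal control. In vehicle the ranges of all neighbours below Gap43 overlapped, so that part of the order is not resolved by these libraries. In SKF the first 7 places were held by the same genes in the same order as in vehicle, from Gap43 (355.9) and Jun (92.9) to Sox11 (15.9), and Sprr1a (15.7) stood before Ier2 (12.7) with overlapping ranges.

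SKF was compared with the same normal control libraries, so the 2 contrasts share their controls. Of the 9 genes tested 8 passed, 7 higher and 1 lower, where 50.2% of all genes tested passed, 25.5% as higher and 24.7% as lower. At least 2-fold higher were 5 of the 9, a size reached by 6.74% of all genes tested. In 6 of the 9 all SKF libraries lay above all normal controls, which held for 11.5% of all genes tested, and in 0 of the 9 all lay below, which held for 7.11%. The median log2 fold change of the 9 was 1.11, beside -0.01 for all genes tested.

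Atf3 was at 10.9, 16.3 and 20.9 normalised CPM (lowest, median and highest) in SKF and rose by 4.11 ± 0.21 (log2 fold change with its SE, 8 libraries a group, edgeR adjusted p = 1.04e-14). Jun was at 137, 159 and 175 normalised CPM and rose by 1.11 ± 0.11 (edgeR adjusted p = 6.25e-09). Ier2 was at 15.4, 24.5 and 27.9 normalised CPM and rose by 1.31 ± 0.15 (edgeR adjusted p = 3.82e-08). For these 3 genes SKF 8 was the lowest SKF library and still lay above every normal control. Sprr1a was at 2.63, 5.22 and 10.9 normalised CPM and rose by 3.62 ± 0.53 (edgeR adjusted p = 3.18e-06). Klf6 was at 81.9, 87.6 and 104 normalised CPM and rose by 1.24 ± 0.10 (edgeR adjusted p = 2.32e-11). Fosl1 was at 74.3, 86.8 and 106 normalised CPM and rose by 0.45 ± 0.09 (edgeR adjusted p = 0.000184). None of these 3 overlapped normal control.

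Sox11 was at 8.89, 12.4 and 16.0 normalised CPM in SKF, with 7 of 8 libraries above every normal control, and rose by 0.83 ± 0.16 (log2 fold change with its SE, 8 libraries a group, edgeR adjusted p = 9.11e-05). Gap43 was at 187, 201 and 254 normalised CPM, with 7 of 8 libraries below every normal control and SKF 8 within their range, and fell by 0.50 ± 0.08 (edgeR adjusted p = 8.91e-06). Fosl2 was at 24.8, 43.3 and 49.4 normalised CPM, all within the range that normal control 6 widens. Its log2 fold change of 0.40 ± 0.18 did not pass (edgeR adjusted p = 0.0637). Without normal control 6 it was 0.55 and passed (edgeR adjusted p = 0.00462), as it did without SKF 8 (edgeR adjusted p = 0.0208).

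**Figure D2:**
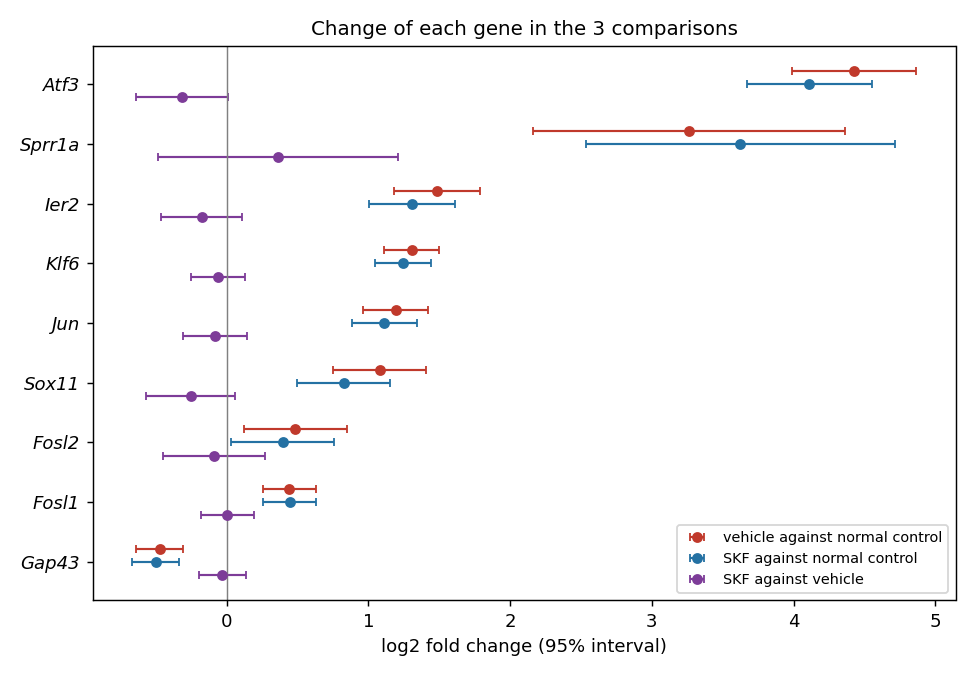
Log2 fold change of each gene (point) with its 95% interval (bar) from the edgeR fit, in vehicle against normal control, SKF against normal control and SKF against vehicle, 8 libraries per group. Both contrasts with normal control lie right of 0 for every gene except Gap43, and every interval of SKF against vehicle includes 0.

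SKF was compared with vehicle to ask whether the agonist changed the levels of these genes in wounded brain. None of the 9 passed edgeR's test, and 0% of all genes tested passed. At an unadjusted p under 0.05 were 0 of the 9 and 715 of all genes tested, which is 4.96%. DESeq2 called 6 genes in all and 0 of the 9. Estimates were negative for 7 of the 9 and positive for 2, with a median log2 fold change of -0.08, beside 0.00 for all genes tested.

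The gene nearest to the threshold was Atf3, at a log2 fold change of -0.31 with a 95% interval from -0.64 to 0.01 (edgeR unadjusted p = 0.0594, adjusted p = 0.937). Of 8 SKF libraries 7 were below the vehicle median of 20.6 normalised CPM, 1 of them below every vehicle library. Sox11 had an estimate of -0.25 with an interval from -0.57 to 0.06, also with 7 of 8 SKF libraries below the vehicle median. Both intervals include 0 and both reach well below it.

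For Ier2 the log2 fold change was -0.18 (95% interval -0.46 to 0.11), and for Fosl2 it was -0.09 (-0.45 to 0.27). Jun had an estimate of -0.08 (-0.30 to 0.15). All 8 SKF libraries were below the vehicle median of Jun, yet they lay inside the vehicle range, and their SD was 12.4 normalised CPM beside 31.1 in vehicle, a difference in spread that was not tested. Klf6 had an estimate of -0.06 (-0.25 to 0.13), Gap43 of -0.03 (-0.20 to 0.14) and Fosl1 of 0.01 (-0.18 to 0.19). The intervals of Jun, Klf6, Gap43 and Fosl1 all lay between -0.30 and 0.19.

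Sprr1a had the widest interval. Its estimate of 0.36 (95% interval -0.49 to 1.21) rests on few libraries: it was 1.00 without vehicle 1 and 0.15 without SKF 2, and did not pass in either case. Every SKF library below every vehicle library was found for 0 of the 9 genes and for 0.0139% of all genes tested. Beside these comparisons, the summed TPM of neutrophil markers was lower in every SKF library than in every vehicle library. Taken singly, 0 of the 5 markers passed edgeR's test in SKF against vehicle, with a median log2 fold change of -0.72, and DESeq2 called 1 lower. The part of these markers in the estimates was not tested.

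The same libraries of the vehicle and SKF groups recurred as the highest or the lowest for several genes. Vehicle 1 was the highest vehicle library for Fosl2, Ier2, Sox11 and Sprr1a, and vehicle 2 for Atf3, Jun and Klf6. Vehicle 5 was the lowest for 5 genes (Fosl1, Fosl2, Ier2, Sprr1a and Klf6) and vehicle 8 for Atf3, Jun and Sox11. In SKF, replicate 2 was the highest for Atf3, Jun, Fosl1 and Sprr1a, and replicate 8 the lowest for Atf3, Jun, Fosl2, Ier2 and Sprr1a. Marker sums moved with some of these libraries: vehicle 1 had the highest summed TPM of neutrophil markers (341) and of macrophage markers (164), and vehicle 5 the lowest (134 and 96.9). Vehicle 8 was also low in both (139 and 106). SKF 8, with 110 TPM of neutrophil and 95.4 TPM of macrophage markers, was near the middle of its group. Neither SKF 2 (105 and 97.9) nor vehicle 2 (165 and 127) had the highest of these sums in its group. Vehicle 2 had the lowest summed TPM of neuronal markers in its group (3583) and the highest of oligodendrocyte markers (12153). The part of these cells in the order of libraries was not tested.

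Co-variation was measured over the 16 vehicle and SKF libraries as the correlation of log2 CPM after the mean of each group was removed, since normal control forms a separate cluster. Of 36 pairs of genes 33 had a positive Pearson r, with a median of 0.58, and 16 passed a two-sided permutation test within groups (Benjamini-Hochberg adjusted over the 36 pairs). The same shares among pairs of other genes were not computed, so these counts do not set the members apart from other genes. By Spearman's rho 12 pairs passed, all of them among the 16. The closest pair was Jun and Ier2, with r = 0.87 (rho 0.84, permutation p = 1e-05, the smallest that 100000 resamples can give, adjusted p = 0.00036), and r was 0.87 without the 2 libraries farthest from the median of Jun. Atf3 and Jun, which can pair in 1 dimer, had r = 0.82 (rho 0.78, permutation adjusted p = 0.0035), and 0.75 without the 2 libraries farthest from the median of Atf3.

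Fosl2 and Ier2 had r = 0.79 (rho 0.71, permutation adjusted p = 0.0035), and Ier2 and Klf6 had r = 0.79 (rho 0.79, permutation adjusted p = 0.0056). Without the 2 libraries farthest from the median of the first gene of each pair these were 0.68 and 0.78. Fosl2 and Sprr1a had r = 0.80 (rho 0.62, permutation adjusted p = 0.0056), a relation that rests on vehicle 1 and SKF 8, since r was 0.51 without them (permutation p = 0.086). Sox11 and Sprr1a had r = 0.70 (rho 0.66, permutation adjusted p = 0.014), and 0.60 without vehicle 1 and SKF 7. Of the 16 pairs 11 had an unadjusted permutation p under 0.05 without the 2 libraries farthest for the first gene. After adjustment over the 36 pairs 8 of them passed. Gap43 was in none of the 16: its r with the other 8 genes ran from -0.22 to 0.39. Each correlation is between genes measured in the same libraries, which share depth and composition.

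**Figure D3:**
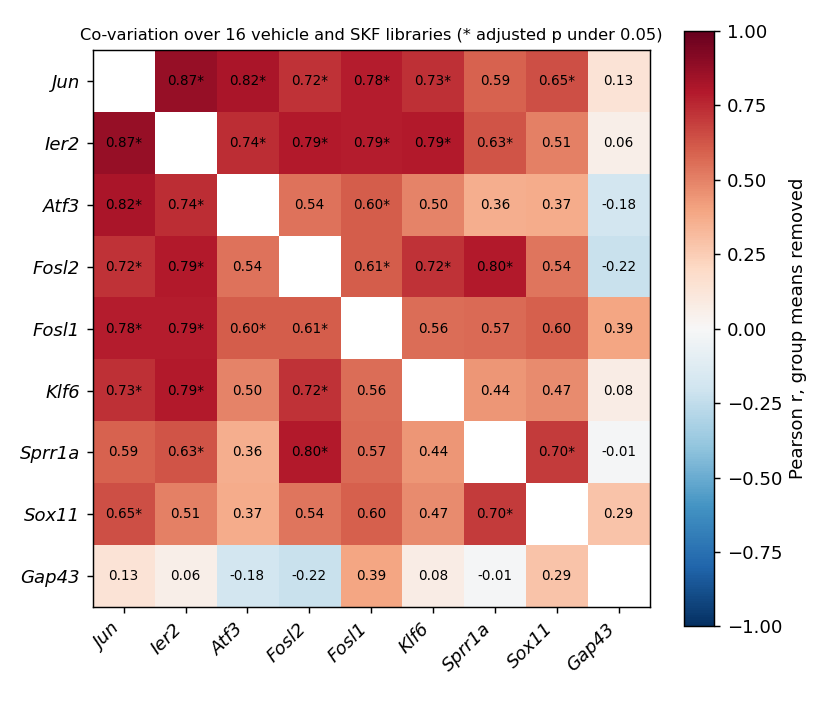
Pearson r between each pair of genes over 16 vehicle and SKF libraries after group means were removed, on a colour scale from -1 to 1, with the value printed in each cell and an asterisk where the permutation adjusted p is under 0.05; the diagonal is left blank. The asterisks fall among the genes other than Gap43, whose values run from -0.22 to 0.39.

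For the 6 genes at least 2-fold higher in vehicle, the genes with the most similar pattern were found by the root mean square difference of log2 CPM, centred on the normal control mean, over all 24 libraries and 12452 candidate genes. Nearest to Atf3 were Maff, a small Maf protein, at 0.315 and Bcl3, a nuclear cofactor of NF-kB, at 0.414. Nearest to Jun were Mcl1, which protects cells from apoptosis, at 0.183 and the adaptor gene Shc1 at 0.194. Nearest to Klf6 were Shc1 at 0.176 and Odc1, the first enzyme of polyamine synthesis, at 0.190. Nearest to Ier2 were Odc1 at 0.222 and Csrnp1, a nuclear protein, at 0.232.

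Sox11 was nearest to the lamin gene Lmnb1, at 0.253, and to the thioredoxin reductase gene Txnrd1, at 0.265. For Sprr1a the nearest genes lay farther off, with Il18rap, a chain of the interleukin 18 receptor, at 0.763 and Nes, the intermediate filament nestin, at 0.767. Sprr1a itself had only 1 to 10 counts a library in normal control and an SD of 1.09 in log2 CPM in vehicle. The part of that spread in the distance was not tested. The log2 fold change in vehicle against normal control was 4.27 ± 0.24 for Maff, 1.17 ± 0.09 for Mcl1, 1.32 ± 0.08 for Shc1 and 2.91 ± 0.15 for Nes (n = 8 per group). These genes were picked for their likeness to members that rose in the same libraries. Their own rise follows from that choice and is no separate result.

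Around these members, 11 lists of related genes with 146 names were examined, of which 137 were in the table and 130 were tested. The lists were chosen with earlier results of these data known. Among 9 other AP-1 dimer partners tested, 4 were higher and 2 lower in vehicle than in normal control, beside 26.9% and 27.1% of all genes tested. The highest were Maff (log2 fold change 4.27 ± 0.24, edgeR adjusted p = 7.48e-14) and Batf, the AP-1 factor of activated lymphocytes and myeloid cells (4.09 ± 0.54, edgeR adjusted p = 3.35e-07). Fos rose by 0.49 and Fosb fell by 0.74, 2 genes named after their values were seen. On the TPM scale, where the median of all genes was 0.11 (log2) instead of -0.01, a shift of 0.12, the counts were 6 higher and 1 lower of 10. Of the 15280 genes tested on log2(TPM + 1), 5476 were higher and 2408 lower in vehicle than in normal control. Those totals, and not the shares from counts, are the background for each TPM count in vehicle given for the lists. From counts, the median of the list was 0.04, beside -0.01 for all genes tested.

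The textbook AP-1 target genes tested were all higher: 14 of 14 rose in vehicle, with a median log2 fold change of 3.97. Of all genes tested 26.9% were higher and 27.1% lower. The list held 15 genes, and those not passing the filter on low counts are left out. Whether the 14 passed it only through the vehicle and SKF libraries was not examined. Timp1, an inhibitor of metalloproteases, rose by 5.94 ± 0.20 (edgeR adjusted p = 8.4e-18), and Hmox1, which degrades haem, rose by 5.95 ± 0.22 (edgeR adjusted p = 1.84e-16). Some of these genes are also expressed by the macrophages and neutrophils whose marker sums were given above. Of 11 stress bZIP factors and their targets 8 rose and 0 fell, with a median of 0.32, led by Cebpd (3.22 ± 0.18, edgeR adjusted p = 8.75e-14) and Cebpb (2.40 ± 0.18, edgeR adjusted p = 5.77e-11), factors of the acute phase response. On the TPM scale 9 rose and 0 fell.

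**Figure D4:**
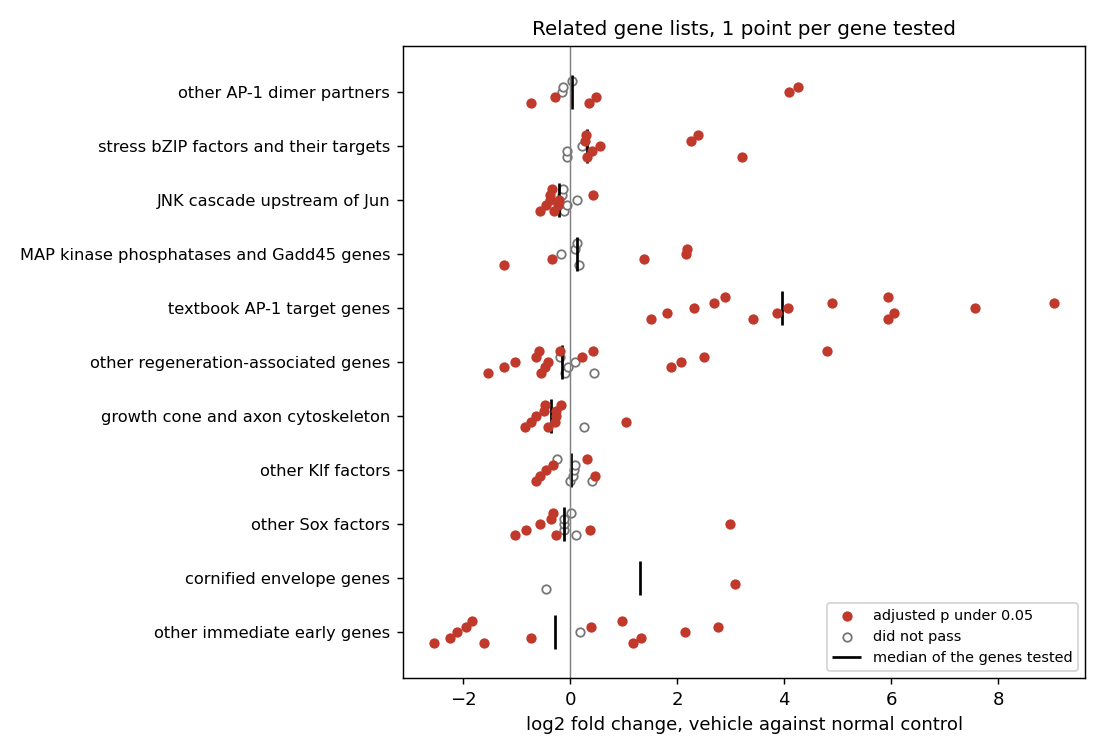
Log2 fold change in vehicle against normal control of each tested gene of the 11 related lists (1 point per gene, filled where the edgeR adjusted p is under 0.05, n = 8 per group) with the median of each list as a vertical line. All points of the textbook AP-1 targets lie right of 0, with a median of 3.97, and most points of the growth cone list lie left of it, with a median of -0.35.

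Few genes of the kinase cascade upstream of Jun were higher, where 26.9% of all genes tested were higher and 27.1% lower. In the JNK cascade 1 of 14 genes was higher and 8 were lower in vehicle, with a median log2 fold change of -0.22, while on the TPM scale 2 were higher and 5 lower. The scaffold genes Mapk8ip1 (-0.38 ± 0.05, edgeR adjusted p = 8.75e-07) and Mapk8ip2 (-0.38 ± 0.06, edgeR adjusted p = 1.18e-05) fell. Map3k12, the kinase known for sensing axon damage and named after its value was seen, was at -0.13 ± 0.07 and did not pass (edgeR adjusted p = 0.124). The list holds levels of RNA and says nothing of kinase activity. Of 9 genes for MAP kinase phosphatases and Gadd45 proteins 3 were higher and 2 lower, near the shares of all genes tested. On the TPM scale the counts were 3 and 1, and the median from counts was 0.13. The 3 that rose were the Gadd45 genes, stress proteins that bind kinases upstream of JNK and p38, with Gadd45a at 2.18 ± 0.15 (edgeR adjusted p = 3.46e-12) and Gadd45g at 2.17 ± 0.17 (edgeR adjusted p = 1.36e-10).

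Other regeneration-associated genes were split. Of 20 tested 6 were higher and 9 lower in vehicle, beside 26.9% and 27.1% of all genes tested. Their median log2 fold change was -0.15 (7 and 8 on the TPM scale, median -0.01). Hspb1, a small heat shock protein, rose by 4.80 ± 0.23 (edgeR adjusted p = 4.65e-14) and Stat3, the factor downstream of the interleukin 6 family, by 1.89 ± 0.10 (edgeR adjusted p = 7.08e-15). Genes that fell included the neuropeptide Adcyap1 (-1.54 ± 0.15, edgeR adjusted p = 2.64e-09) and the neuronal tubulin Tubb3 (-0.55 ± 0.08, edgeR adjusted p = 3.28e-06), both named after their values were seen.

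In the list of growth cone and axon cytoskeleton genes, to which Gap43 is close in function, 1 of 12 genes was higher and 10 were lower. Their median was -0.35 (2 and 6 on the TPM scale). Among all genes tested 26.9% were higher and 27.1% lower. Fez1, which links cargo to kinesin, fell by 0.84 ± 0.06 (edgeR adjusted p = 3.83e-12), and the tubulin Tubb2b rose by 1.04 ± 0.08 (edgeR adjusted p = 2.35e-11). Neuronal markers stood as given for Gap43, with 3 of 8 lower.

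Most of the other Klf and Sox factors were not higher, nor were most genes tested, of which 26.9% were higher and 27.1% lower. Of 12 other Klf factors 2 were higher and 4 lower in vehicle, with a median log2 fold change of 0.02, and on the TPM scale 4 were higher and 2 lower. Klf13 fell by 0.56 ± 0.07 (edgeR adjusted p = 5.64e-08) and Klf15 by 0.63 ± 0.12 (edgeR adjusted p = 4.13e-05). Of 13 other Sox factors 2 were higher and 6 lower, with a median of -0.12. On the TPM scale 3 were higher and 2 lower, and without normal controls 4 and 6 the counts were 2 and 3. Sox7, an endothelial factor, rose by 2.99 ± 0.24 (edgeR adjusted p = 1.32e-10), and Sox8, expressed in glia, fell by 1.02 ± 0.11 (edgeR adjusted p = 4.65e-09). Sox4, the gene closest to Sox11 and named after its value was seen, rose by 0.38 ± 0.10 (edgeR adjusted p = 0.00196).

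Of 9 other genes of the cornified envelope, the structure in which Sprr1a serves in skin, 2 were tested. Tgm1, the transglutaminase that crosslinks it, rose by 3.08 ± 0.34 (edgeR adjusted p = 1.8e-08), and Loricrin was at -0.46 ± 0.27 and did not pass (edgeR adjusted p = 0.161). Of 14 other immediate early genes 6 were higher and 7 lower in vehicle, beside 26.9% and 27.1% of all genes tested. Their median was -0.28 (7 and 7 on the TPM scale). Zfp36, which speeds the decay of cytokine mRNA, rose by 2.76 ± 0.19 (edgeR adjusted p = 6.93e-12), and Egr1, a factor induced by neuronal activity, fell by 1.61 ± 0.11 (edgeR adjusted p = 5.46e-12). Arc, Nr4a1 and Npas4, other genes of neuronal activity named after their values were seen, had log2 fold changes of -2.24, -2.12 and -1.94 and passed edgeR's test.

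In SKF against normal control the same lists gave 14 of 14 AP-1 targets higher with a median log2 fold change of 3.75, 7 and 0 of 11 stress bZIP genes higher and lower, 0 and 8 of 14 JNK cascade genes, 6 and 9 of 20 other regeneration-associated genes and 1 and 9 of 12 growth cone genes. Background shares there were 25.5% higher and 24.7% lower. On log2(TPM + 1) the counts higher and lower in SKF were 14 and 0 for the AP-1 targets and 9 and 0 for stress bZIP genes. They were 0 and 4 for the JNK cascade, 7 and 8 for other regeneration-associated genes and 1 and 6 for growth cone genes. Of the 15280 genes tested on that scale 4996 were higher and 2296 lower. In SKF against vehicle 0 genes of the 11 lists passed edgeR's test. The median log2 fold change in that comparison was -0.19 for the AP-1 targets and 0.07 for the growth cone genes, beside 0.00 for all genes tested.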

How the data were processed

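Poly(A) RNA of 24 rat brain samples was made into directional libraries and sequenced, per the labels' protocols. Read counts for each gene were deposited by the authors as whole numbers, on build mRatBN7.2 per the submitters' processing notes. TPM for the same genes and samples were deposited by the authors too. The aligner and the counter were not given in the sources used here. Groups and replicate numbers come from the sample titles, and 0 columns of values were left unmapped.

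The test on counts was edgeR 4.0.16 under R 4.3.3 (TMM, filterByExpr by group with a minimum of 10 counts, which is 0.918 CPM at the median library, robust quasi-likelihood F test) in a single fit of the 24 libraries, without a block, which left 21 residual degrees of freedom. P-values were adjusted by Benjamini-Hochberg over all 14421 tested genes and called under 0.05. Depth was 8911339 to 12383368 counts a library, and the biological coefficient of variation was 16.2%. The fit was first tested on simulated data. TPM served for levels between genes and for an alternative with limma 3.58.1 on log2(TPM + 1) or log2(TPM + 0.1), for genes with a TPM of at least 0.5 in 8 libraries. A log2 fold change on that scale understates the change of low genes. Also tried were RLE size factors, DESeq2 1.42.0, no filter, CPM of at least 1 in 8 libraries, only the groups compared, the replicate number as a block, each library left out in turn, and normal controls 4 and 6 left out together. Log2 CPM for co-variation used a prior count of 2. Every member with a row passed the filter, so the permutation test planned for members below it had no case. Tables were made with Python 3.11.15, NumPy 2.4.6, SciPy 1.17.1 and pandas 2.3.3, and figures with Matplotlib 3.10.9. Promoter sequences are from RefSeq (GRCr8) and no coordinates were converted.

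The members and all gene and marker lists were chosen with earlier results of these data known. Genes were named by rule: all members, the 2 tested genes of each list with the smallest p in vehicle against normal control, any list gene past the threshold in SKF against vehicle, and the 2 genes most like each member that differed at least 2-fold in vehicle. Other genes named were chosen after their values were seen.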

Additional observations from a re-analysis of the deposited data

Results flagged for a closer look

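In each of the 27 combinations of a gene and a group of 8 libraries, the gap of the highest or lowest library to its neighbour was set against the range of the group, and 5 exceeded Dixon's 95% critical value. Chance flags about 1 in 20 such groups. Sprr1a in vehicle 1 was 15.4 normalised CPM where the next library was 5.05 (gap over range 0.732). Fosl2 in vehicle 1 was 75.0 normalised CPM (0.541), so the same library stood out for both genes. Fosl2 in normal control 6 was 53.9 normalised CPM where the next was 31.4 (0.747). Atf3 in normal control 4, the library with the skeletal muscle markers, was 1.87 normalised CPM where the next was 1.02 (0.593). Gap43 in vehicle 7 was 285 normalised CPM where the next was 219 (0.673). The sources of these levels were not tested.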

How the results depend on the processing

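Over all alternatives, 224 of 225 values of the members in vehicle against normal control kept their direction and their side of the threshold, the exception being Fosl2 without vehicle 1. In SKF against normal control 217 of 225 did, and the other 8 were Fosl2 passing the threshold. In SKF against vehicle 215 of 225 did, and 10 estimates near 0 changed sign without passing: Fosl1 was -0.01 with either TPM pseudocount (-0.0116 for both) and -0.045 to 0.0456 with 1 library left out, Fosl2 -0.158 to 0.0607 (the latter without vehicle 1) and Gap43 -0.0781 to 0.044 (the latter without vehicle 7). The cause was not tested. DESeq2 called 6 genes in SKF against vehicle where edgeR called 0. Without the 2 libraries farthest from the median of each pair's first gene, 10 pairs co-varied at a permutation adjusted p under 0.05. They were 8 of the 16 called over all libraries and 2 others, Jun with Sprr1a and Fosl2 with Sox11. Libraries far out for the second gene were kept. For Jun with Sprr1a those left out were vehicle 8 and vehicle 2, so vehicle 1, which stood out for Sprr1a, stayed in.

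With 1 library left out, the members called were 8 to 9 in vehicle against normal control, 8 to 9 in SKF against normal control and 0 in SKF against vehicle. Genes called were 7447 to 7845, 6885 to 7331 and 0. On the log2(TPM + 1) scale the calls in vehicle against normal control were 5476 higher and 2408 lower, beside 3879 and 3904 from counts, and in SKF against normal control 4996 and 2296, beside 3682 and 3557.

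The replicate numbers recur in all groups, yet same-numbered libraries did not deviate together: over 8 pairs the correlation of their deviations was -0.241 to 0.0144 for vehicle and normal control, -0.186 to 0.044 for SKF and normal control and -0.124 to 0.0783 for SKF and vehicle, and 0 libraries correlated best with their own number. With the replicate number as a block, 7434 genes were called in vehicle against normal control, 6830 in SKF against normal control and 0 in SKF against vehicle, with 9, 9 and 0 of the members. Depth limits Sprr1a and Atf3 in normal control most, where a library held few counts of either.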
